A study of Drosophila melanogaster with 12 samples.

Results

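Insertions of transposable elements (TEs) that were expressed at a moderate level in control larvae of *Drosophila melanogaster* were followed in *ISWI* mutant larvae. The set holds the TE entries whose normalized read count, averaged over the 6 control libraries, was at least 50 and under 500. This rule took 781 of the 3840 TE insertions in a table of 41081 transcripts, leaving 2769 insertions under 50 and 290 at or above 500. Of the 781 insertions, 691 carry a family in their symbol (94 families) and 90 carry only an RR number. All 781 passed the filter on low values that was applied before testing, which asked for 10 or more normalized reads in 3 or more of the 12 libraries.

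Total RNA was sequenced after removal of ribosomal RNA from whole third-instar larvae, with several larvae pooled for each library. There were 4 groups of 3 libraries. Mutant females and mutant males carried the allele combination Iswi1/Iswi2. They came from crosses between yw stocks that each carried 1 mutant allele over a GFP-marked balancer, and larvae without GFP were taken. Control females and control males were +/+ larvae. The yw background therefore came with the mutation, and the effects of the strain and of the mutation cannot be told apart in these data. *ISWI* encodes the ATPase subunit of several chromatin remodeling complexes that space nucleosomes, and it is ubiquitous in the fly.

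TEs of the fly fall into broad classes that move in different ways. LTR retrotransposons (_297_, *opus*, *roo*, *gypsy* and their kin) and non-LTR retrotransposons (*Doc*, *jockey*, the F element, *HeT-A*) copy themselves through an RNA intermediate, whereas DNA transposons (*hobo*, *pogo*, the P-like element _1360_) are excised and reinserted by a transposase, and *INE-1* is an old and very numerous Helitron-like element. Their RNA is kept low by chromatin and by small RNAs, in the germline and its support cells mainly through the piRNA pathway and in somatic tissue mainly through siRNAs. Copies of a family are near identical over long stretches, so reads can be shared among them, and the insertions of a family are not independent measurements. Reads in an insertion can also come from a gene in which it lies.

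The depth recovered from the deposited values was between 89290368 and 119202607 reads per library. One library stood apart for these insertions. In mutant males the median normalized count of the 781 insertions was 123 in replicate 1, 212 in replicate 2 and 115 in replicate 3, against 118, 147 and 89.0 in control males. In mutant females it was 130, 116 and 104.3, against 122, 121 and 126 in control females. Replicate 2 of the mutant males was the highest of all 12 libraries, and the insertions took 0.601% of its normalized counts. Of their sum of 463633 there, 112278 came from the single insertion *Cr1a{}2297*. In that library 564 of the 781 insertions lay above the mean of the control males, against 414 and 367 in the other two mutant male libraries. The median log2 ratio to the control males in that library was 0.00 over all transcripts tested and 0.74 over the insertions. In replicates 1 and 3 of the mutant males it was −0.10 and −0.11 over all transcripts, and 0.09 and −0.10 over the insertions. The median count over all transcripts tested was also higher in replicate 2, at 225 against 172 and 165 in replicates 1 and 3. The male calls over the set and those of several families are given with and without it. The counts of insertions called in both sexes are given only with it. In bulk samples of whole larvae, fewer cells of a type and less RNA per cell cannot be told apart.

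**Figure D1:**
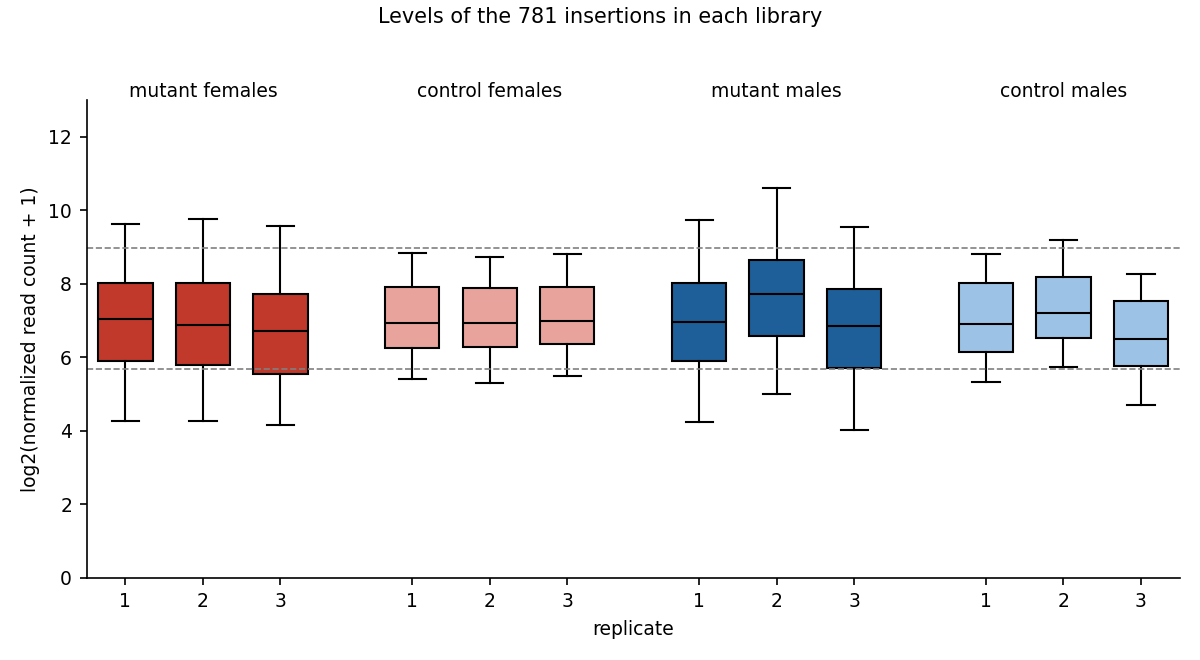
Levels of the 781 insertions in each library, as log2(normalized read count + 1); boxes give the quartiles and median, whiskers the 5th and 95th percentiles, and dashed lines the limits of 50 and 500. The boxes of both mutant groups are wider than those of the controls, and replicate 2 of the mutant males has the highest median (212).

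The rule fixed the control levels inside the window and left the mutant levels free. The group mean was still in the window for 523 of the 781 insertions in mutant females, against 718 in control females. In mutant females 173 had left it downward and 85 upward, against 41 and 22 in control females. In mutant males 565 were in the window, 103 were under it and 113 were at or over 500, against 701, 54 and 26 in control males. Because the control libraries chose the members, the wider spread of the mutants is a description. When the members were chosen by the control libraries of the other sex, no choosing library was in the contrast. The choice still used libraries of the control genotype, so the shares that follow are a description too. Of 771 insertions in the window by control females alone, 82.9% were in it in control males and 70.2% in mutant males. Of 759 chosen by control males alone, 84.2% were in it in control females and 68.4% in mutant females.

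The limits of the window separated insertions of like level. *Doc{}976* with a control mean of 50.02 and *INE-1{}1941* with 50.05 were just inside, while *Doc2{}4272* and *Tc1-2{}3736*, both with 49.8, were just outside. At the upper limit *roo{}78* with 494 and *opus{}127* with 499.97 were inside, and *Juan{}83* with 505 and *roo{}911* with 509 were outside.

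Direction and size of the change differed widely among the insertions. In mutant females 108 insertions rose and 93 fell relative to control females at an adjusted p under 0.05 (limma on log2(normalized count + 1), Benjamini-Hochberg over the 35284 transcripts tested). Over all transcripts tested, 7.12% were called higher and 5.68% lower in that comparison (12.8% in all). In mutant males 134 insertions rose and 45 fell relative to control males, where the corresponding shares over all transcripts were 7.11% and 9.12% (16.2% in all). These calls used the control values that had chosen the members, and nothing is read from their number. Without replicate 2 of the mutant males, 94 rose and 68 fell in males, with 136 of the 179 calls kept in the same direction, and 121 rose and 112 fell in females. The shares over all transcripts were then 6.95% and 11.5% in males and 7.58% and 6.49% in females. Leaving out replicate 2 of the control females gave the fewest calls in females, 50 rises and 56 falls, with 4.69% and 3.05% over all transcripts. Leaving out replicate 1 of the control males gave the fewest in males of the fits that left out 1 library, 90 rises and 19 falls, with 5.21% and 5.12% over all transcripts.

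The number of male calls depended on which libraries were in the fit. With the 2 male groups fitted alone, 48 insertions rose and 7 fell, all of them also called in the fit of all libraries, which is 7.04% of the 781, where 8.62% of all transcripts were called. In females the fit alone gave 117 rises and 103 falls, or 28.2%, where 13.7% of all transcripts were called. In this male fit 12 insertions of _297_, 9 of *Burdock*, 4 of *springer*, 3 of *flea*, 2 of *Doc* and 1 of _412_ rose, and 3 of *H*, 1 of *pogo* and none of _17.6_ or *Rt1b* fell. The adjusted p in males was 0.059 for _297{}6_, 0.103 for _HB{}5077_ and 0.076 for _Cr1a{}2297_ (limma). The male calls named from here on are those of the fit of all libraries.

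The quartiles of the log2 fold changes were −1.04 and 0.72 in females, around a median of −0.28. In males they were −0.51 and 0.95, around a median of 0.18. The median over all transcripts was 0.00 in females and −0.10 in males. The positive male median rested on single libraries, since it was −0.03 without replicate 2 of the mutant males and −0.02 without replicate 3 of the control males. A change of at least 2-fold in either direction was seen for 375 insertions in females and 299 in males, and of at least 8-fold for 35 and 32. The libraries of the mutant females lay all above those of the control females for 236 insertions and all below for 290, where 17.5% and 17.9% of all transcripts did so. In males the mutant libraries lay all above the control libraries for 195 insertions and all below for 94, where 14.5% and 19.8% of all transcripts did so.

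The 2 sexes moved together for most insertions. The fold changes of females and of males share no library, and 600 of the 781 had the same sign in both (Pearson's r = 0.83 and Spearman's rho = 0.82 across insertions, which are not independent). In both sexes 73 insertions rose and 38 fell. The mutant and control libraries of these 111 did not overlap in either sex. That held for every insertion called in a sex, so it adds nothing to the calls. Over all transcripts 4.38% rose and 3.21% fell in both. These calls share 1 variance estimated over all 12 libraries. With each sex fitted alone, 46 rose and 5 fell in both. The share over all transcripts for those fits is not given, and nothing is read from these counts. No insertion was called in opposite directions in either fit. In females alone 35 rose and 55 fell, in males alone 61 rose and 7 fell, and 512 insertions were called in neither sex. A call in one sex and not in the other is not a difference between the sexes, which was tested separately through the term for sex by genotype.

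**Figure D2:**
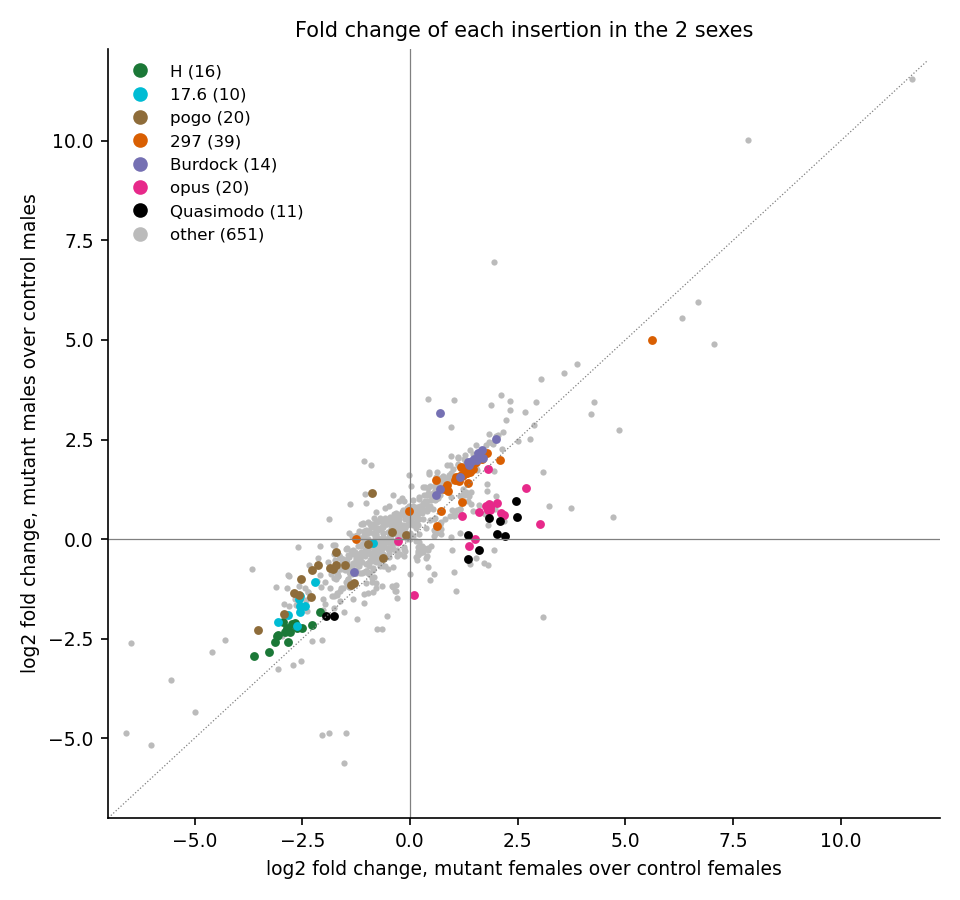
Log2 fold change of each of the 781 insertions, mutant over control females on the horizontal axis and mutant over control males on the vertical axis, with 7 TE families in colour and equal change on the dotted line. The 16 *H* insertions lie together at the lower left and most of the 39 insertions of _297_ together at the upper right, whereas most of *opus* and *Quasimodo* lie below the line.

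Family membership went with much of the difference among insertions. Families accounted for 47.5% of the variance of the female fold changes and 40.9% of that of the male ones, and classes of TE for 19.5% and 15.6% (adjusted for the number of groups, over the insertions). There were 36 families with at least 5 insertions in the set, which together hold 582. Both medians were above 0 in 15 of these families and below 0 in 17. In 3 families the female median was below and the male one above 0, and in 1 it was the other way. No median of these families changed sign under TMM normalization. Without replicate 2 of the mutant males the male median changed sign in 2 of them.

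The most uniform fall was that of *H*, the *hobo* element, a DNA transposon of the hAT group. All 16 insertions fell in both sexes. Their summed normalized count was 444, 306 and 389 in mutant females, against 2989, 2719 and 3065 in control females. In mutant males it was 425, 777 and 395, against 2564, 2831 and 2514 in control males. No mutant library came near a control library, and the sum was 7.70-fold lower in mutant females and 4.95-fold lower in mutant males. The log2 fold changes of the single insertions ran from −3.63 to −2.08 in females, and in males from −2.94 to −1.84. *H{}385* had 34.0, 33.3 and 32.5 normalized reads in mutant females, against 420, 402 and 446 in control females. Its values were 33.6, 94.5 and 34.2 in mutant males, against 359, 397 and 363 in control males. Its log2 fold change was −3.63 ± 0.41 in females and −2.94 ± 0.41 in males (SE, n = 3 libraries a group). The levels of the *H* insertions also moved together over the 12 libraries, with a median r of 0.98 over 120 pairs of insertions, as a description of libraries that differ by genotype.

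The element _17.6_, an LTR retrotransposon related to *gypsy*, was low in the mutants as well. Its 10 insertions summed to 653, 603 and 613 in mutant females, against 2764, 3046 and 3358 in control females. They summed to 608, 1657 and 530 in mutant males, against 2486, 2758 and 1662 in control males, so that replicate 2 of the mutant males came close to replicate 3 of the control males. In females 9 of the 10 fell and in males 7, or 9 without replicate 2 of the mutant males. The median log2 fold change was −2.56 in females and −1.68 in males. Its largest change was that of _17.6{}975_, with −3.07 in females and −2.09 in males.

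The element *pogo*, a DNA transposon, and *Rt1b*, a non-LTR retrotransposon, had more falls called in females than in males, with no insertion that passed the test for sex by genotype. Of 20 *pogo* insertions 13 fell in mutant females and 4 in mutant males, with a median log2 fold change of −1.75 and −0.75, and 17 male fold changes were below 0. The *pogo* sum was 1461, 1105 and 1032 in mutant females, against 4015, 3299 and 4510 in control females, and 1678, 2735 and 1302 in mutant males, against 3633, 2628 and 2655 in control males. The male groups overlapped through replicate 2 of the mutants. The strongest *pogo* change was in *pogo{}4759*, with 51.0, 36.7 and 42.6 normalized reads in mutant females, against 475, 465 and 594 in control females. It fell in mutant males too, with a log2 fold change of −2.29 against −3.53 in females. Of 15 *Rt1b* insertions 8 fell in females and 4 in males, with medians of −1.48 and −0.75. *BS* and *Juan*, both non-LTR retrotransposons of the *jockey* clade, had 4 of 6 insertions each called lower in females, and 0 and 1 in males. The *BS* median was −2.06 in females, with −0.91 in males. For *Juan* the female median was −1.20, and the male one −0.46.

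Single insertions fell further than the median of any family with at least 5 insertions. The 6 with the largest falls in both sexes were *HB{}5077*, *FB{}Pur-alpha[FB]*, *Rt1b{}1062*, *gypsy5{}1006*, *H{}385* and *micropia{}2987*. *HB{}5077*, a copy of a Tc1-like DNA transposon, had 6.08, 8.03 and 0 normalized reads in mutant females, against 453, 317 and 390 in control females. In mutant males it had 0, 60.2 and 10.6, against 301, 287 and 199 in control males. Its mean was 82.3-fold lower in mutant females and 11.1-fold lower in mutant males, where the log2 fold change was −4.86, or −6.25 without replicate 2 of the mutants. The fall in males was called by limma (adjusted p = 0.033) and not by edgeR (adjusted p = 0.172). Of the 14 *HB* insertions in all, 1 rose and 3 fell in each sex.

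*FB{}Pur-alpha[FB]*, a copy of the foldback element *FB* whose symbol names the gene Pur-alpha, had 6.08, 4.59 and 3.36 normalized reads in mutant females, against 417, 449 and 242 in control females. Mutant males had 2.96, 7.52 and 4.71 normalized reads, against 221, 110 and 365 in control males. The mean was 79.0-fold lower in mutant females and 45.8-fold lower in mutant males, and edgeR called both falls too (adjusted p = 0.0007 and 0.0011). *Rt1b{}1062* had 0, 0 and 3.36 normalized reads in mutant females, against 155, 132 and 146 in control females, at least 41.4-fold lower when the mutant libraries were set to a floor of 3 reads. Mutant males had 19.7, 13.4 and 5.89 normalized reads, against 110, 96.8 and 41.4 in control males, which was 6.35-fold lower. The male call was lost without replicate 2 of the mutant males (log2 fold change −2.69 in place of −2.60, adjusted p = 0.058, limma) and with edgeR (adjusted p = 0.133).

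The LTR retrotransposon _297_, a relative of *gypsy* that carries an envelope-like gene, gave the largest group of rises. Of its 39 insertions 26 rose in mutant females and 32 in mutant males, and none fell. The sum over the 39 was 22618, 26402 and 24037 normalized reads in mutant females, against 11113, 9063 and 10153 in control females. It was 24564, 47559 and 20559 in mutant males, against 10108, 9886 and 7920 in control males. The sum was 2.41-fold higher in mutant females and 3.32-fold higher in mutant males, with replicate 2 far above the other mutant male libraries. Without that library 30 of the 32 kept the call in males, no other insertion gained one, and the median log2 fold change was 1.33 in place of 1.68. The levels of the _297_ insertions moved together, with a median r of 0.97 over 741 pairs. The insertion _297{}6_, the insertion the study followed in embryos, had 633, 788 and 690 normalized reads in mutant females, against 323, 242 and 240.1 in control females. The values were 665, 1312 and 528 in mutant males, against 259, 247 and 170.4 in control males. Its log2 fold change was 1.40 ± 0.35 in females (adjusted p = 0.026) and 1.80 ± 0.35 in males (adjusted p = 0.0072, SE, n = 3 a group, limma).

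*Burdock*, *springer* and *flea*, LTR retrotransposons of the same *gypsy*-like group, rose with _297_. *Burdock* rose in 10 of 14 insertions in females and in 12 in males, with medians of 1.41 and 1.97. The *Burdock* sum was 4633, 4636 and 3091 in mutant females, against 1882, 2002 and 1845 in control females, and 5343, 5161 and 3883 in mutant males, against 1633, 1565 and 1328 in control males. Here replicate 2 of the mutant males did not stand apart. The element *springer* rose in 4 of 8 insertions in females and 6 in males (medians 1.84 and 2.50), and *flea* in 3 of 5 in both sexes (medians 2.16 and 2.70). The insertion *flea{}810* had 978, 1065 and 1148 normalized reads in mutant females, against 162, 139 and 92.5 in control females. Mutant males had 2473, 3267 and 1303 normalized reads, against 57.2, 230.1 and 183 in control males. The insertion *springer{}645* was one of the steadiest of the 781 insertions, with 340.3, 351 and 218 normalized reads in mutant females, against 334, 287 and 306 in control females, and 360.4, 427 and 252 in mutant males, against 341, 416 and 267 in control males. The *INE-1* copies *INE-1{}4057* and *INE-1{}4314* were the other two steady ones.

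In the fit of all libraries, *Doc* and _412_ were called mostly in males. *Doc*, a non-LTR retrotransposon, rose in 3 of 38 insertions in females and 21 in males, and _412_, an LTR retrotransposon, in 2 of 21 and 12. The *Doc* sum was 8611, 5652 and 7276 in mutant females, against 2826, 2829 and 2821 in control females, and 7776, 11229 and 5683 in mutant males, against 2904, 3516 and 1889.7 in control males. The mutant libraries were above all control libraries in both sexes, and single-insertion values were above them for 31 *Doc* insertions in females and 27 in males. Without replicate 2 of the mutant males, 12 *Doc* and 2 insertions of _412_ rose in males. With each sex fitted alone the calls were not mostly male. In those fits 3 *Doc* insertions rose in females and 2 in males, and for _412_ the counts were 2 and 1. The medians were 0.78 in females and 1.49 in males for *Doc*, and 0.56 and 1.11 for _412_. No insertion of either family passed the test for sex by genotype.

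**Figure D3:**
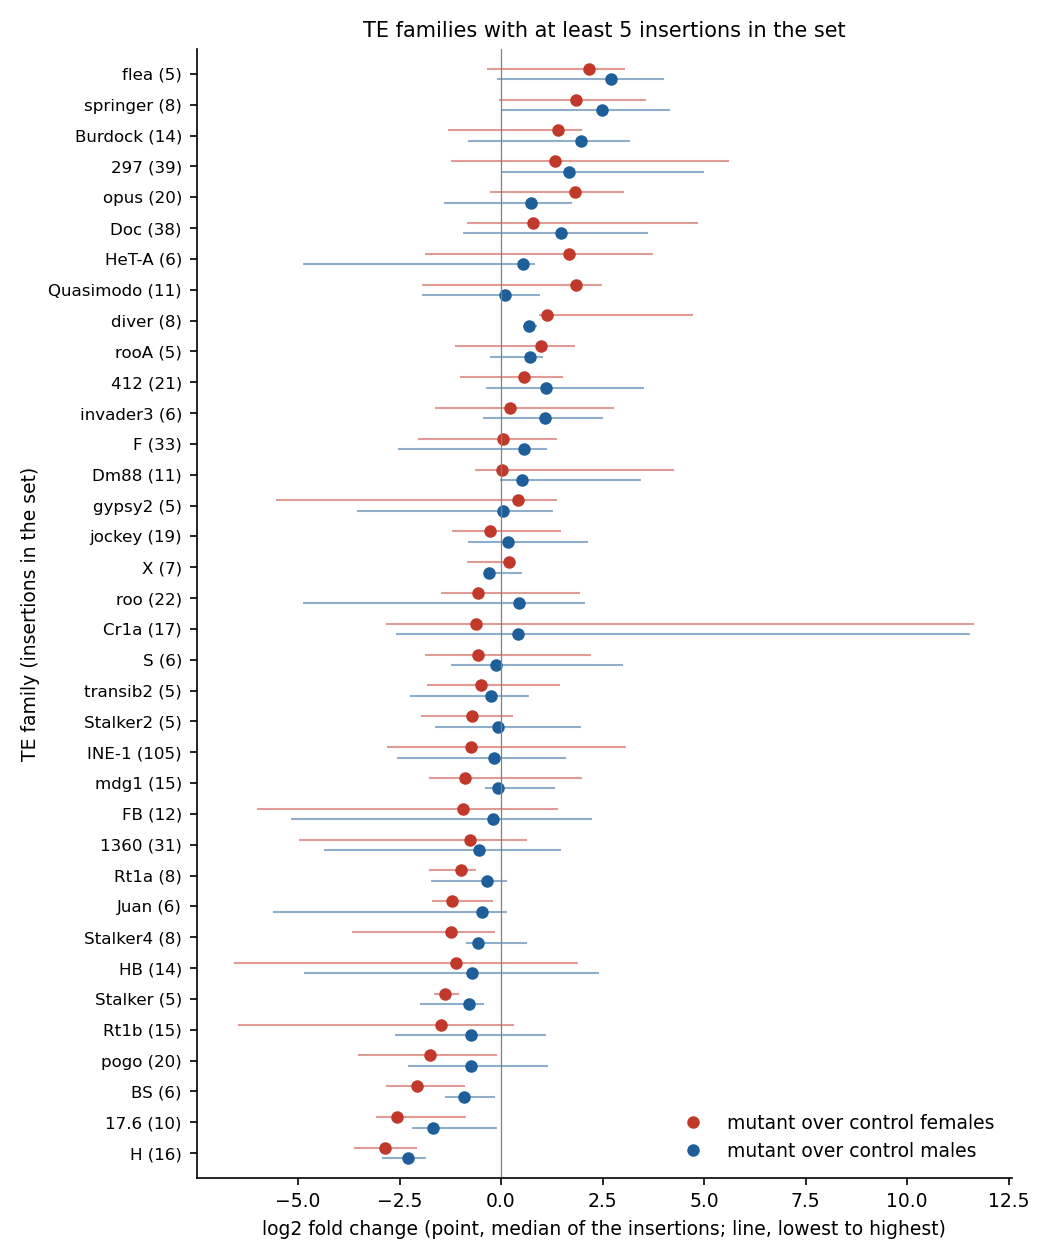
Median (point) and lowest to highest (line) log2 fold change of the insertions of each of the 36 TE families with at least 5 insertions, mutant over control females in red and mutant over control males in blue. The families *flea*, *springer*, *Burdock* and _297_ stand at the top, *H* and _17.6_ at the bottom, and the blue point lies right of the red one in most families.

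The insertions with the largest rises in both sexes were *Cr1a{}2297*, *gypsy{}615*, RR50358, *micropia{}1243*, RR48391 and RR48393. The insertion *gypsy{}615*, a copy of the LTR retrotransposon *gypsy*, had 42833, 24379 and 39961 normalized reads in mutant females, against 149, 289 and 77.0 in control females. In mutant males it had 36518, 30254 and 22958, against 36.6, 14.5 and 38.9 in control males. The mean was 208-fold higher in mutant females and 998-fold higher in mutant males. The other two *gypsy* insertions of the set were called in neither sex. The insertion *micropia{}1243*, a copy of another LTR retrotransposon, had 13712, 5068 and 12283 in mutant females, against 64.8, 69.7 and 77.0 in control females. In mutant males it had 5002, 3838 and 6179, against 137, 183 and 178 in control males. Its relative *micropia{}2987* fell in both sexes (log2 fold change −3.05 in females and −3.26 in males), so copies of 1 family moved in opposite directions.

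*Cr1a{}2297*, a copy of a non-LTR retrotransposon of the CR1 clade, met the rule through a single library. It was at 0 in 5 of the 6 control libraries and had 2427 normalized reads in replicate 2 of the control males. In mutant females it had 2449, 2910 and 4714, at least 1282-fold above control females set to a floor of 3 reads. In mutant males it had 21112, 112278 and 28071. Both rises were called by limma (adjusted p = 0.011 in each sex) and neither by edgeR (adjusted p = 0.067 in females and 0.197 in males). Of the other *Cr1a* insertions none rose and 2 fell in females, and 2 rose in males. Without replicate 2 of the mutant males, the 17 *Cr1a* insertions of the set gave 1 rise and 2 falls in males. In 4 of the 781 insertions, namely *Cr1a{}2297*, _297{}2766_, *INE-1{}5812* and RR48331, a single library gave over 80% of the control sum.

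**Figure D4:**
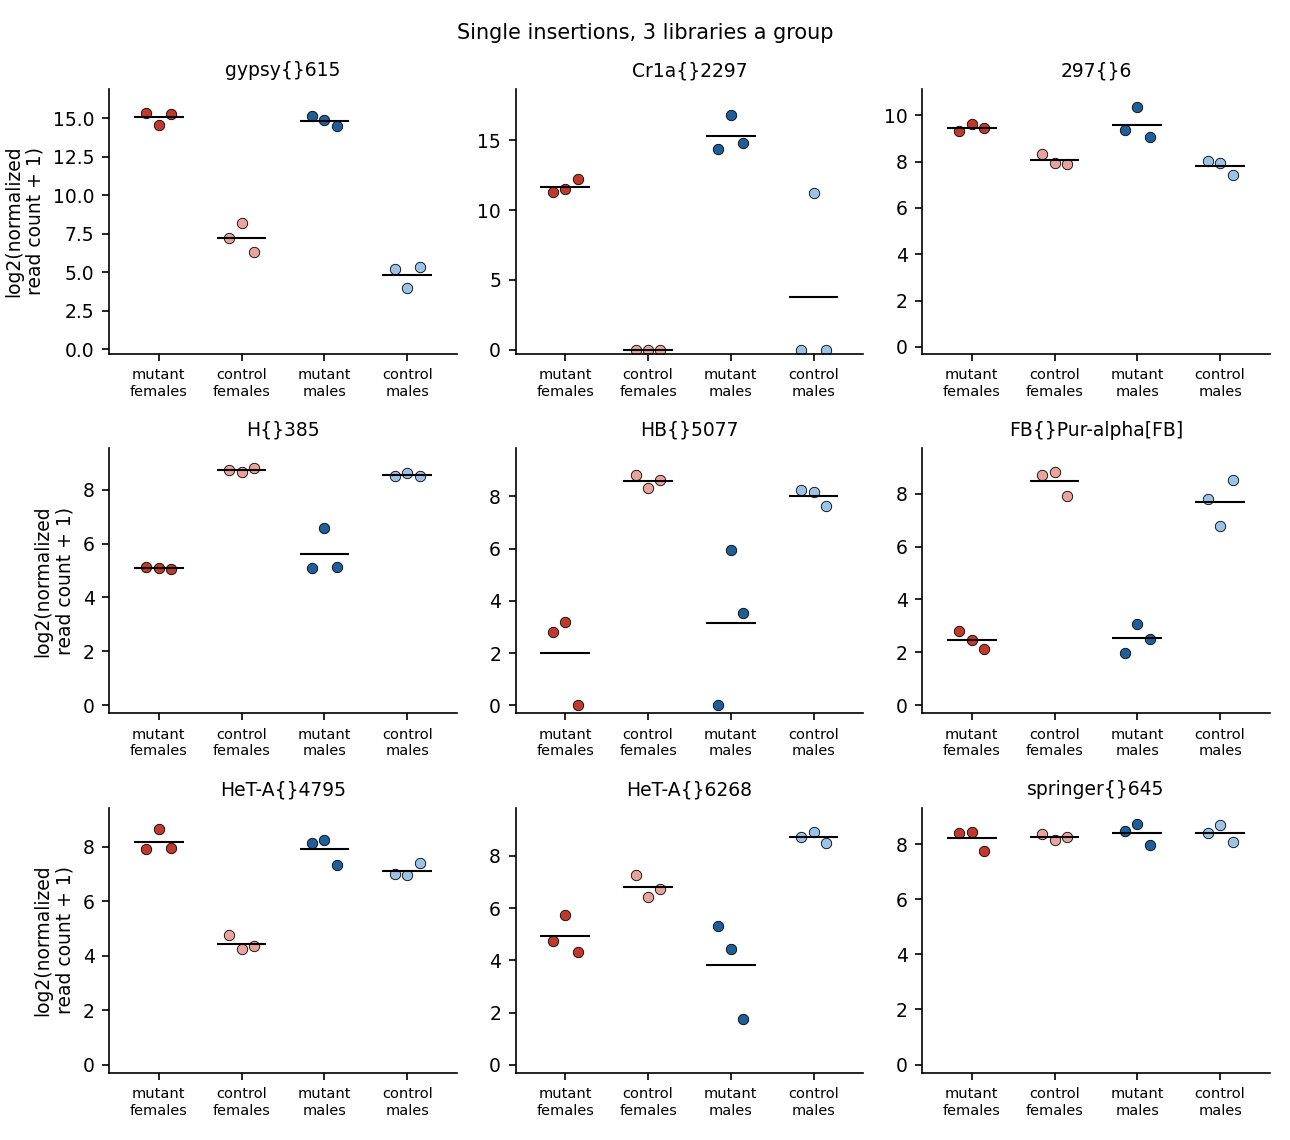
Level of 9 single insertions in each library, as log2(normalized read count + 1); points are the 3 libraries of a group and bars their mean on that scale. The insertions *gypsy{}615* and *Cr1a{}2297* were higher in the mutants of both sexes, *H{}385*, *HB{}5077* and *FB{}Pur-alpha[FB]* lower, and *springer{}645* was at like levels in all 4 groups.

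The LTR retrotransposons *opus* and *Quasimodo* and the telomeric element *HeT-A*, a non-LTR retrotransposon that lengthens the chromosome ends, were called higher mainly in females. The element *opus* rose in 14 of 20 insertions in mutant females and in 1 in mutant males, with medians of 1.82 and 0.73. Without replicate 2 of the mutant males, no *opus* insertion rose and 1 fell in males. The *opus* sum was 10772, 8148 and 8188 in mutant females, against 2690.1, 2239.8 and 2692 in control females. It was 12288, 23567 and 11074 in mutant males, against 10030.5, 15994 and 4262 in control males, so that the male groups overlapped. *Quasimodo* rose in 6 of 11 insertions in females, and in males none rose and 2 fell. Its sum was 4001, 3512 and 2281 in mutant females, against 1140.2, 1041 and 1076 in control females, and 3260.5, 6793 and 3217 in mutant males, against 4413, 6103 and 2251 in control males.

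These families also differed between the control sexes. Relative to control females, 40 of the 781 insertions were higher in control males and 2, *gypsy{}615* and _412{}962_, were lower, where 9.3% and 0.692% of all transcripts were called (limma). The control libraries chose the members, so these counts are given as a description. Of the 40, *opus* gave 16, *Quasimodo* 9 and the RR entries 6, and the median log2 difference was 2.06. In mutant females 27 of the 40 rose over control females and none fell, with a median log2 fold change of 1.84. The mean of the mutant females lay between those of the control females and the control males for 32 of the 40. In mutant males 1 of the 40 rose. Both comparisons share the control females, so the 2 sets of values are not independent. The control difference depended on single libraries: 39 of the 40 were still called without replicate 3 of the control males, but only 9 without replicate 2 and 10 without replicate 1 of that group, and 15, 13 and 15 without replicates 1, 2 and 3 of the control females. Between mutant males and mutant females none of the 40 was called, with a median log2 difference of 0.73, or 0.36 without replicate 2 of the mutant males.

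**Figure D5:**
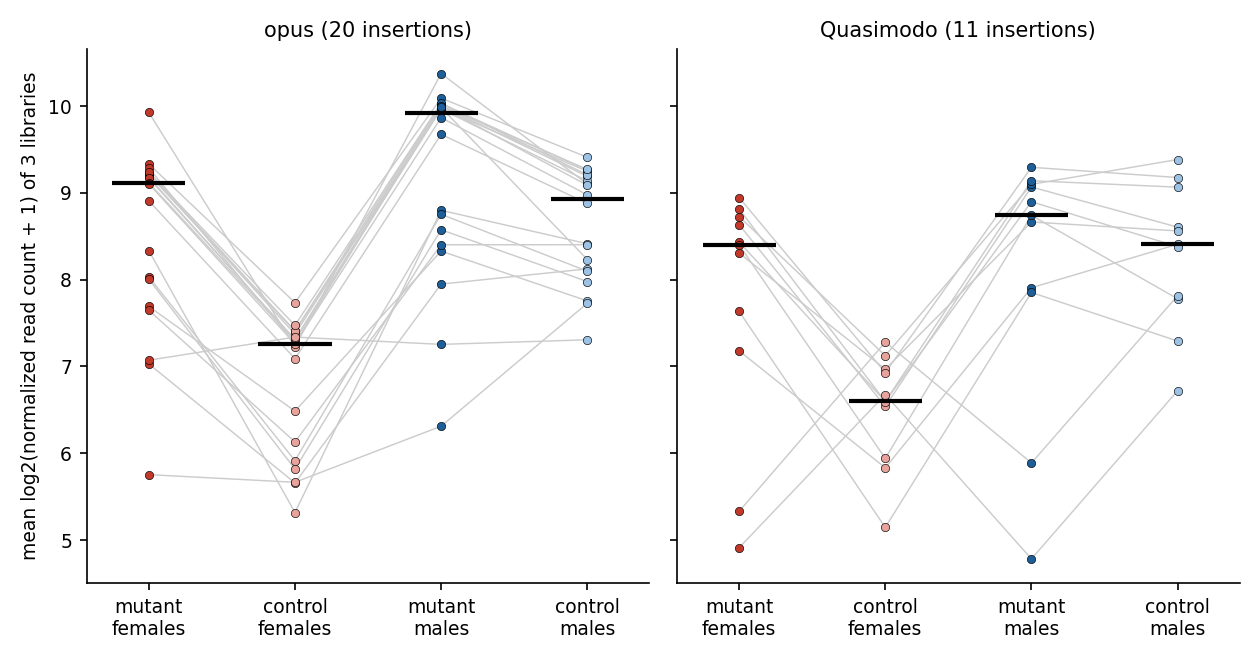
Mean log2(normalized read count + 1) over the 3 libraries of each group for every *opus* and *Quasimodo* insertion; grey lines join the values of 1 insertion and black bars give the median of the insertions. In both families the control females are lowest, and the median of the mutant females lies nearer to those of the males of both genotypes than to that of the control females.

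*HeT-A* rose in 4 of 6 insertions in females, and in males none rose and 1 fell. One insertion of the set passed the test for sex by genotype. *HeT-A{}4795* had 239, 406 and 247 normalized reads in mutant females, against 25.9, 17.9 and 19.2 in control females. Mutant males had 281, 303 and 160.3 normalized reads, against 128, 123 and 167 in control males. It was 14.2-fold higher in mutant females and 1.78-fold higher in mutant males, and the log2 fold change in males minus that in females was −2.94 (adjusted p = 0.046, limma). The control female libraries lay below all others. The control males also lay below the mutant females, while the mutant males overlapped both of these groups. Over all transcripts 0.799% passed this test, against 1 of 781 insertions. At an unadjusted p under 0.05 (limma) there were 48 insertions, of which 27 had the larger log2 fold change in males. The share over all transcripts at that cut is not given, and nothing is read from this count. By adjusted p, edgeR called 0 and DESeq2 called 15, where they called 0.147% and 4.99% of all transcripts. *HeT-A{}6268* had another pattern, with 38.5, 20.9 and 2.36 normalized reads in mutant males, against 420.3, 481 and 360 in control males (log2 fold change −4.87, adjusted p = 0.0035, limma). In mutant females it had 25.5, 52.8 and 19.1, against 152, 85.8 and 105 in control females, and it was not called there (−1.88, adjusted p = 0.178). The difference between the sexes for this copy did not pass either (adjusted p = 0.357).

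The difference between mutant males and mutant females is made of no control library, although in the fit of all 12 libraries its standard error also came from the controls. None of the 781 insertions was called by limma or by edgeR, and 6 were called by DESeq2. Over all transcripts limma called 3.21%, edgeR 0.862% and DESeq2 7.12%. Fitted on the 6 mutant libraries alone, limma again called none by adjusted p, against 1.14% of all transcripts. In that fit 10 insertions had an unadjusted p under 0.05. In the fit of all libraries there were 25 at an unadjusted p under 0.05, of which 20 were higher in males. The shares over all transcripts at the unadjusted cut are not given, and nothing is read from these counts. The lowest adjusted p was 0.069, for *Rt1b{}1062*. The log2 difference was above 0 for 629 insertions, with quartiles of 0.11 and 0.56 and a median of 0.35, against 0.09 over all transcripts. The standard error of a single insertion had a median of 0.45. Without replicate 2 of the mutant males, 468 were above 0 and the median was 0.07. The mutant male libraries were all above the mutant female libraries for 90 insertions (11.5%) and all below for 9 (1.15%), where 9.91% and 4.48% of all transcripts were.

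Several large families gave few calls. *INE-1*, the largest with 105 insertions, had 8 falls in females and 1 rise and 1 fall in males (4 falls without replicate 2 of the mutant males). Its sum was 11709, 11312 and 8649 in mutant females, against 15882, 14454 and 15612 in control females, and 12575, 13690.5 and 9745 in mutant males, against 13035, 14114 and 11556 in control males. The female groups did not overlap, and 91 of the 105 female fold changes were below 0 (median −0.73). The *INE-1* insertions did not share 1 pattern over the libraries as *H* and _297_ did, with a median r of 0.32 over 5460 pairs. The P-like DNA transposon _1360_ had 2 falls among 31 insertions in females and 1 change each way in males, with medians of −0.75 and −0.53. The F element had 2 rises among 33 in females and 1 in males, and *roo*, an LTR retrotransposon, 1 fall among 22 in females and 1 rise in males. Without replicate 2 of the mutant males, the F element had no rise and 1 fall in males, and *roo* had no call there. The element *jockey* had 1 change each way among 19 in females, and 2 rises and 1 fall in males. The element *mdg1* had 1 rise and no fall among 15 in each sex, although its female median was −0.88 and 13 of its insertions had mutant female libraries all below the control female ones. Its falls in females came to 7 without replicate 2 of the mutant males, which changes only the shared variance, and to 6 with the female groups fitted alone.

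The remaining families with at least 5 insertions had fewer members. The element *diver*, an LTR retrotransposon, was above 0 in all 8 insertions in both sexes (medians 1.12 and 0.70), with 2 rises in females and none in males. *Dm88* had 3 rises among 11 in females and 2 in males, led by *Dm88{}1690* with 2248, 2291 and 2417 normalized reads in mutant females, against 115, 100.1 and 148 in control females, and 1558, 2085 and 1347 in mutant males, against 205.5, 114 and 145 in control males. The element *invader3* had 2 rises among 6 in each sex. *Stalker4* had 3 falls among 8 and *Stalker* 2 among 5 in females, with none in males. *Rt1a*, *X* and *Stalker2* had no call in either sex. The foldback element *FB* had 3 falls among 12 in females, and 2 rises and 1 fall in males. In *gypsy2*, *S*, *transib2* and *rooA* 1 insertion each was called, lower in females in *gypsy2* and *S*, higher in females in *transib2* and higher in males in *rooA*. The 109 insertions of the 58 smaller families gave 8 rises and 5 falls in females and 11 rises and 3 falls in males. The 90 RR entries gave 14 rises and 7 falls in females and 18 rises in males (12 rises and 6 falls without replicate 2 of the mutant males). RR50358 had 17426, 18935 and 17154 normalized reads in mutant females, against 177, 159.9 and 181 in control females, and 16985, 13036 and 13052 in mutant males, against 232, 416 and 127 in control males. RR48391 followed it closely, with 14643, 16017 and 14653 in mutant females, against 196, 183 and 182 in control females.

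For some families the insertion with the largest change, averaged over both sexes, adds detail to the counts. The *Doc{}1674* copy had 3033, 1708 and 2352 normalized reads in mutant females, against 74.5, 76.8 and 85.2 in control females (log2 fold change 4.85, adjusted p = 0.018, limma). Its male values, 2962, 1900 and 171 in mutants against 723, 85.5 and 51.4 in controls, overlapped and were not called. The *opus{}821* copy had 1080.4, 997 and 852 in mutant females, against 161, 128 and 159 in control females, and 1126, 2030.3 and 1021 in mutant males, against 593, 1039 and 267 in control males. It rose in females (2.70, adjusted p = 0.0036) and missed the threshold in males, where the groups overlapped (1.27, adjusted p = 0.084). The rise of *mdg1{}1636* in females (4.02-fold in the means, adjusted p = 0.011) went against the negative median of its family, and *jockey{}964* rose in both sexes (1.46 and 2.14) where the *jockey* medians were −0.28 and 0.18. The copy *gypsy2{}5191* had 0, 17.2 and 8.97 normalized reads in mutant females, against 317, 206 and 280.4 in control females, a 30.7-fold difference in means that was called (adjusted p = 0.0091). In males it had 17.8, 77.7 and 5.89 in mutants, against 288, 290.4 and 193 in controls, without overlap, and missed the threshold (adjusted p = 0.054).

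Some large fold changes came with uneven libraries. The copy *roo{}4733* had 0, 1.67 and 0 normalized reads in mutant males, against 0, 469 and 142 in control males, at least 67.8-fold lower in the mean with the mutant libraries set to a floor of 3 reads (adjusted p = 0.238, limma). One control library was at 0 as well, so the groups overlapped. The copy _1360{}4665_ had 8.51, 0 and 20.2 in mutant females, against 188, 169.8 and 197 in control females, which did not overlap but was not called (−4.98, adjusted p = 0.056). The copy *Juan{}257* fell in males (−5.62, adjusted p = 0.043, limma) with 0, 0 and 178 normalized reads in mutants, against 371, 192 and 298 in controls. It lost the call without replicate 2 of the mutant males (adjusted p = 0.115). Its mean was 4.84-fold lower, and neither edgeR (adjusted p = 0.462) nor DESeq2 (adjusted p = 0.373) called it.

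By class, the 279 insertions of LTR retrotransposons gave 80 rises and 21 falls in females and 83 rises and 12 falls in males, or 63 and 19 in males without replicate 2 of the mutants. The 122 DNA transposons gave 2 rises and 38 falls in females and 4 rises and 25 falls in males. Of these falls, 16 in each sex were *H*. The 185 non-LTR retrotransposons gave 12 rises and 19 falls in females and 28 rises and 7 falls in males, or 16 and 11 in males without that library.

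The insertions of a family that lie outside the window were summed and tested in the same way. They are other entries than the members, although the same control levels had put them outside. Near-identical copies inside and outside can share reads, so the 2 sets of values are not independent. Of 121 families, 37.2% were called in females and 39.7% in males. Among the 36 families above, 15 were called in females, 8 higher and 7 lower, and 14 of these had the sign of the median of the members. In males 14 were called, 12 higher and 2 lower, of which 9 had the sign of the median of the members. *Burdock* (log2 fold change 1.76 in females and 2.03 in males), *springer* (2.05 and 2.55) and *flea* (2.66 and 3.25) were higher outside the window in both sexes, and _17.6_ was lower (−3.73 and −3.26). The 7 members of the non-LTR element *X* had no call while the rest of the family was higher in both sexes (1.73 and 1.80). The rest of *H* was not called (−0.56 with adjusted p = 0.23 in females, 0.18 with adjusted p = 0.71 in males), nor was the rest of _297_ (0.60 with adjusted p = 0.064, and 0.30 with adjusted p = 0.33, limma). The rest of *Quasimodo* was lower in mutant females (−1.47, adjusted p = 0.001), against a median of 1.84 over its members.

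The share of insertions called was higher in the sets of higher control level. In females 25.7% of the 781 were called, against 13.7% of the 1264 tested insertions under 50 and 38.3% of the 290 at or above 500. In males the shares were 22.9%, against 16.7% and 29.7%. Over all transcripts 12.8% were called in females and 16.2% in males. Transcripts of like level were not set beside these shares, so nothing is read from their order about the insertions. The insertions under the window that could be tested had to pass the filter on low values, and the control levels defined all 3 sets, so these shares are a description. Choosing the members by the control libraries of the other sex gave 141 rises and 45 falls among 771 insertions in males (median log2 fold change 0.22) and 92 rises and 97 falls among 759 in females (median −0.32). Of these insertions 718 and 701 also belong to the 781, and the fit is the same one.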

How the data were processed

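Libraries were grouped by their labels (12 libraries, 3 per group). As the labels and methods state, the authors used Trimmomatic (0.39) for trimming, HISAT2 (2.2.1) for mapping to BDGP6, StringTie (2.1.5) for transcript quantification and DESeq2 (1.32.0) for normalization of read counts. The deposited values are a signal, namely read counts divided by 1 size factor per library. Multiplying by the size factors (0.798 to 1.59) returned whole numbers (tolerance 0.01) for 100% of entries up to 1000 reads, and the recovered depth was 89290368 to 119202607 reads. A count of 50 reads has a Poisson error of 0.20 on the log2 scale and one of 10 reads 0.46, beside median SDs within groups of 0.20 to 0.57 over the insertions. How reads of near-identical copies were assigned is not given in the sources used here.

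Here, log2(normalized count + 1) was fitted with limma (3.58.1, R 4.3.3), 1 mean per group and an intensity trend, with Benjamini-Hochberg adjustment over 35284 transcripts and a threshold of 0.05. Alternatives were edgeR (4.0.16) and DESeq2 (1.42.0) on the recovered reads, TMM, other filters, pseudocounts and windows, each comparison alone, a replicate block and leaving out each library. The tests were tested on simulated data. The p-values rest on the spread between 3 pools of larvae per group. In the fit of all libraries this spread was pooled over the 4 groups and moderated across transcripts. It is therefore not the spread of the compared groups alone. Family names come from a table that matched all 3840 TE entries, and classes were assigned by family. The members, lists and tests were chosen with earlier results of these data known. Named are the 6 largest rises and falls called in both sexes without overlap of libraries, calls of sex by genotype, the 3 steadiest, the insertions at the limits, the largest change per family and insertions the study names, of which the Max insertion was outside the window. Known transcripts were not paired with gene names here, so *ISWI* itself, the silencing genes and cell markers were not analysed.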

Additional observations from a re-analysis of the deposited data

Results flagged for a closer look

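*HeT-A{}4795* was the only insertion whose change differed between the sexes by the test of sex by genotype, with a log2 fold change in males minus that in females of −2.94 (adjusted p = 0.046, limma). The call was kept with TMM normalization (adjusted p = 0.041), with DESeq2 (2.17e-06), without a filter on low values, with other pseudocounts and without replicate 2 of the mutant males (0.019). It was lost with edgeR (adjusted p = 0.118), with the replicate block (0.115), with a filter of 10 in every library (0.097) and when any of the other 11 libraries was left out (from 0.072 to 0.120). The difference itself stayed between −3.11 and −2.52 in all of these.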

How the results depend on the processing

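The number of insertions called in females was 201 and became 321 with DESeq2 and 78 of 274 in a narrower window of 100 to 250. In males it was 179 and became 55 when the 2 male groups were fitted alone (7.04% of the insertions, against 8.62% of all transcripts) and 59 in the narrower window. Between mutant males and mutant females it was 0, and 6 with DESeq2. For sex by genotype it was 1, and 0 with edgeR, with at least 10 in every library, with the replicate block and in the narrower window, and 15 with DESeq2. Between the control sexes it was 42, and 18 with at least 10 in every library, 11 with the 2 groups alone and 16 in the narrower window. Beside most of the counts in this and the next paragraph no share over all transcripts is given, and nothing is read from them about the insertions. The sex by genotype test could not be fitted on 2 groups alone. Leaving out 1 library at a time gave 106 to 233 calls in females, 109 to 162 in males, 0 to 2 between mutant males and mutant females, 0 to 2 for sex by genotype and 12 to 45 between control males and control females. The median log2 fold change lay between −0.35 and −0.16 in females, and in males between −0.03 and 0.35, and the number of families called outside the window between 37 and 56 in females, and in males between 35 and 57.

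The labels do not state whether replicate numbers pair the libraries. The deviations of same-numbered mutant and control libraries correlated with a mean r of 0.0042 in females and 0.090 in males, and 3 of 6 mutant libraries correlated best with their own number. Among them were replicates 2 and 3 of the mutant males (r = 0.19 and 0.077). In mutant and control males the median of the insertions was highest in replicate 2 (212 and 147) and lowest in replicate 3 (115 and 89.0). A pairing of the male libraries was not tested further. With the replicate block, 194 insertions were called in females, 159 in males, 41 between the control sexes, 0 between mutant males and mutant females and 0 for sex by genotype. No called insertion among those named by rule changed direction under any alternative, 120 values lost their call and 48 gained one, and 1800 kept their side of the threshold, leaving out values for which DESeq2 gave no adjusted p. The counting error is 0.46 on the log2 scale at 10 reads and 0.20 at 50 reads. The median SDs within groups, over insertions of all levels, are 0.20 to 0.57. The 3 libraries per group limit all tests.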
